A study of Mus musculus with 6 samples.

Results

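The genes of the WNT pathway that encode its ligands, receptors, antagonists and core signalling proteins were examined in the pituitary of male mice, in 3 libraries labelled RD and 3 labelled HFD. The members were the 66 rows of the deposited count table, of 16736 in all, whose symbols name a WNT ligand, a Frizzled receptor, a co-receptor, a secreted antagonist, an R-spondin or its receptor, or a core cytoplasmic or nuclear component. Each of the 66 matched a single mouse gene of GENCODE M21, and none of these 66 symbols stood on more than 1 row. All glands were collected 4 h into feeding that followed a 16 h fast, so that the 2 groups share this schedule and differ in the diet label. RD and HFD are used here as the labels write them, without a spelled-out meaning, and no strain, age, diet duration, batch or date is given there. Whether each replicate came from an animal of its own is not stated either, and the p-values below rest on the variation among the 6 libraries alone, part of which may be technical. The tissue was bulk pituitary, in which fewer cells of a type and less RNA per cell cannot be told apart.

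WNT proteins are lipid-modified secreted ligands that bind Frizzled receptors together with the co-receptors LRP5 and LRP6. In the canonical branch, Dishevelled (DVL) proteins are recruited to the receptor, the destruction complex of AXIN, APC and kinases is held back, and beta-catenin (CTNNB1) enters the nucleus and acts with TCF and LEF factors on targets that include AXIN2. Secreted proteins of the SFRP, DKK and WIF families block the ligands or the co-receptors, while R-spondins bound to LGR receptors keep the ubiquitin ligases ZNRF3 and RNF43 from clearing Frizzled. In the pituitary the pathway is known for its part in growth of the gland and in the stem cell compartment.

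Totals of the listed rows ranged from 14185372 to 18111345 counts per library, and 3 counts corresponded to 0.173 to 0.208 CPM (counts scaled to a common library total, with TMM factors). The 7 genes of the pituitary hormone subunits together held 85057 to 95537 CPM in the RD libraries and 58322 to 65152 CPM in the HFD libraries. Most of this sum was GH1, with a mean of 67336 CPM for RD against 38005 CPM for HFD. The 7 genes did not all move in 1 direction. GH1, PRL, FSHB and LHB were called lower, whereas TSHB (log2 change 1.04) and CGA (0.37) were called higher. POMC (0.58) had overlapping groups and was not called. RD replicate 3 stood apart on the first principal component, at -32.9 against -8.83 and -16.1 for the other RD libraries, while the HFD libraries lay between 17.2 and 22.2. A summed signal of 5 oligodendrocyte markers was 59.9 to 73.2 CPM in RD and 71.9, 80.0 and 198 CPM in HFD replicates 1, 2 and 3, and 2 of the 4 tested markers of that list were called higher.

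For the sequence at the start sites of the members, RefSeq promoter windows (250 bases before to 50 after a start site, GRCm38.p6) were searched on both strands for 4 strings bound by TCF/LEF factors, the string CTTTGAA, the string CTTTGAT, the string CTTTGTA and the string CTTTGTT, which do not overlap one another in the windows shown. Of the 66 members, 44 had a window, and 7 of their 54 windows (13.0%) held a string, against 16.9% of all 32851 windows. SFRP4 is not among the 44. FZD7 and LEF1 are shown as examples of the 7 members with a string, the others being DKK1, TCF7L2, WNT3, WNT5B and WNT11. The LEF1 window is 1 of several for that gene and the only one of them with a string. This window lies inside the gene, which runs from 131110471 to 131224356 on the plus strand. The windows at the beginning of the gene, from 131110047 and from 131110073, held no string. The capitals mark the string, the windows are on the plus strand at chr1:59481897-59482196 and chr3:131156044-131156343, and the genes were chosen after their values were seen.
FZD7: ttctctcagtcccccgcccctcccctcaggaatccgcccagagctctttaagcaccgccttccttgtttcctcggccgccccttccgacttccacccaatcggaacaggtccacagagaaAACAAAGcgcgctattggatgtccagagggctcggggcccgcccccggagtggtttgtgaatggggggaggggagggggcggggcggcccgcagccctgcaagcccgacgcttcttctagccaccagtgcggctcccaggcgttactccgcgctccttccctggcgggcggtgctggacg
LEF1: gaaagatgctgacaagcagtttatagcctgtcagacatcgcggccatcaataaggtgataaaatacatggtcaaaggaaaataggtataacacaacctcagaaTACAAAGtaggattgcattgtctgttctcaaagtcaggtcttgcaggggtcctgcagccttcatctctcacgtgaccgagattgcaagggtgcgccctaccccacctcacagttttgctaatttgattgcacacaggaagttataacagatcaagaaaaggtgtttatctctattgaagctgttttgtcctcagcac
The string in the FZD7 window began 130 bases before the start site, and that in the LEF1 window 147 bases before it, and in each the printed strand shows the reverse complement of the string (CTTTGTT in FZD7 and CTTTGTA in LEF1). The AXIN2 window held none of the 4 strings, which says only that these letters are not in those 300 bases.

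Receptors and intracellular components of the pathway were well represented in the gland, whereas most ligands were at or near the limit of counting. By RPKM (TMM-scaled CPM per kb of exon), CTNNB1 had the highest level of the 66 members, at 72.9 ± 0.486 RPKM in RD and 66.1 ± 1.55 RPKM in HFD (SD, n = 3 each, as for all means given here). LRP6, the main co-receptor of the canonical branch, came next at 25.3 ± 0.567 and 22.4 ± 0.897 RPKM. AXIN1, DVL1, APC and DVL3 followed, with group means between 15.5 and 19.8 RPKM, and their ranges overlapped one another. Among the 19 ligand genes only 7 passed the filter on low counts, and 12 did not. All 9 Frizzled genes other than FZD10 passed it, as did every co-receptor, cytoplasmic and transcription factor member. In all, 45 of the 66 members were tested. The 21 others had at most 19 counts and 1.22 CPM in any library, and DKK1, WNT1 and WNT7A had no count in any of the 6. A count of 0 allows up to the 3-count level given above, which covers counting error only.

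**Figure D1:**
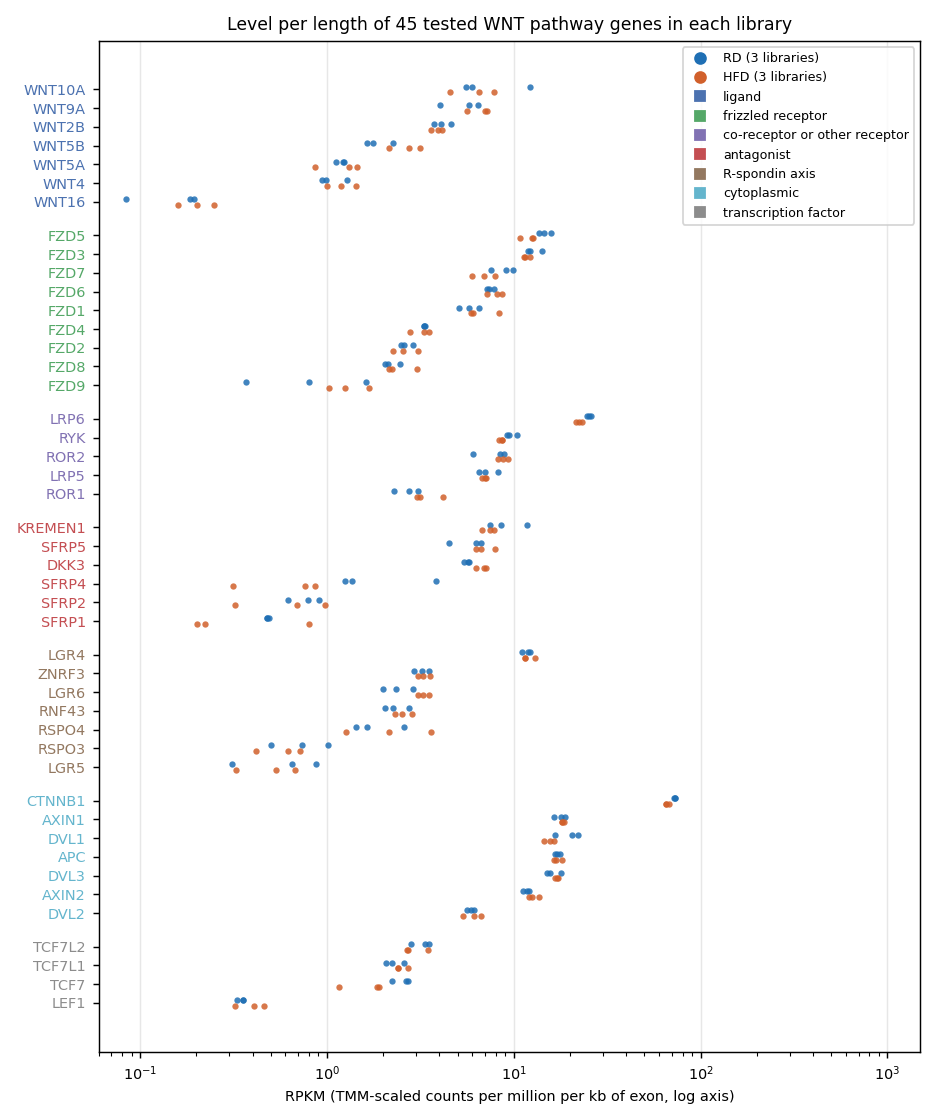
Level of the 45 tested WNT pathway genes in RPKM (log axis), 1 point per library (blue RD, orange HFD), ordered by role and by mean level within a role. CTNNB1 is highest at 66.1 to 72.9 RPKM in group means, and the ligands WNT10A (7.92 and 6.31 RPKM) and WNT9A (5.41 and 6.63 RPKM) have group means below those of FZD5 and FZD3.

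Comparison of HFD with RD asks whether the diet group differs in expression of these genes. A single member was called at an adjusted p below 0.05 over all tested rows, SFRP4, which fell, and 0 rose (10 of the 45 had an unadjusted p below 0.05, 3 higher and 7 lower). By DESeq2, 0 of 44 members rose and 3 fell, where 6.90% of all rows rose and 6.18% fell by that tool. By edgeR, the called share was 2.22% of tested members, against 10.5% of all 13873 tested rows, of which 5.87% were called higher and 4.61% lower. Unadjusted p-values below 0.05 were found for 22.2% of members and for 26.5% of all rows. Split by direction, they stood at 6.67% of members higher and 15.6% lower, against 14.04% and 12.5% of all rows. The 2 groups of libraries did not overlap for 9 of the 45 members, 2 of them higher and 7 lower in HFD, against 32.5% of all rows. The share below without overlap was 15.6% for members and for all rows alike. The median log2 change of the members was 0.03, and that of all rows -0.00. The median size of the change, regardless of sign, was 0.18 for the members and 0.16 for all rows. In both directions together, the edgeR shares of members were below those of all rows, and the share lower at an unadjusted p was above it.

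The widths of the intervals set what could have been seen. For 22 of the 45 members (48.9%) the 95% interval of the log2 change lay within ±0.5, a 1.41-fold difference, and for 35 (77.8%) within ±1, a 2-fold difference. Over all rows the shares were 55.5% and 84.6%. The narrow intervals belonged to abundant members such as CTNNB1, APC, LRP6, AXIN1 and LGR4, and the wide ones to scarce members such as WNT16, FZD9, SFRP1 and RSPO4. An uncalled member is therefore not shown to be equal in both groups. SFRP4 apart, the point estimates ran from -0.63 for TCF7 to 0.50 for WNT5B.

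**Figure D2:**
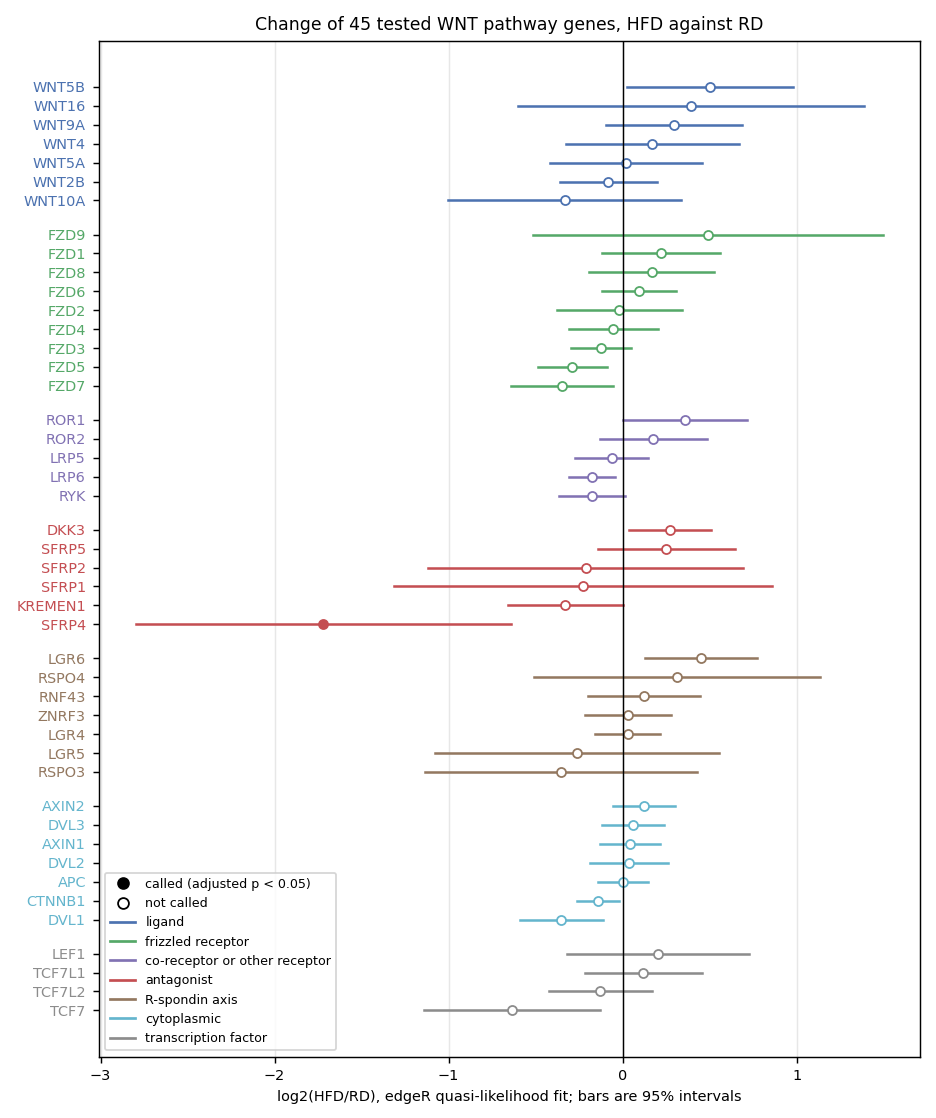
log2(HFD/RD) of the 45 tested members from edgeR's quasi-likelihood fit, with 95% intervals, grouped by role. The filled point is SFRP4 at -1.72, the only member called, and the open points lie between -0.63 and 0.50.

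Of the 19 ligand genes, 7 were tested and 0 were called in either direction (1 at an unadjusted p below 0.05). WNT10A, a canonical ligand, was at 7.92 ± 3.77 RPKM in RD and 6.31 ± 1.64 RPKM in HFD. Its CPM was 13.6, 14.7 and 30.3 in RD replicates 1, 2 and 3 and 19.3, 11.3 and 16.2 in HFD replicates 1, 2 and 3. The high value was in the RD library that stood apart, and the log2 change of -0.33 ± 0.30 (SE) became 0.13 without it. WNT9A was at 5.41 ± 1.23 and 6.63 ± 0.850 RPKM, below WNT10A in the RD mean and above it in the HFD mean, and WNT2B at 4.13 ± 0.437 and 3.90 ± 0.273 RPKM. For both, the groups overlapped.

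WNT5B, a ligand of the non-canonical branch, was at 5.996, 4.69 and 4.33 CPM in RD and 5.69, 7.27 and 8.31 CPM in HFD. The lowest HFD library lay below the highest RD library, and the log2 change of 0.50 ± 0.21 was not called (adjusted p = 0.167). WNT5A, its close relative, was at 9.61, 9.57 and 8.73 CPM in RD and 6.73, 11.3 and 10.3 CPM in HFD, a log2 change of 0.02 ± 0.20 with a 95% interval from -0.42 to 0.46. WNT4, known from reproductive and endocrine tissue, had means of 4.51 ± 0.767 and 5.07 ± 0.905 CPM. WNT16 was near the floor at 0.367 to 1.08 CPM. The WNT cargo receptor WLS, which carries ligands to the cell surface and is not a member, had means of 90.3 ± 9.63 and 87.8 ± 1.07 CPM (log2 change -0.04 ± 0.09), a sign that turned with library totals as the only scaling (0.03).

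Several ligand genes are neighbours in the genome, and within 2 of these pairs the levels stood far apart. WNT10A and WNT6 lie 6.19 kb from each other on chromosome 1 of mm10. WNT6 had between 6 and 19 counts per library and was not tested, while WNT10A had group means of 19.5 and 15.6 CPM. WNT9A and WNT3A are 16.2 kb apart on chromosome 11. WNT3A had 1 count in all 6 libraries together, against group means of 18.01 and 22.1 CPM for WNT9A. In the pairs WNT1 with WNT10B and WNT3 with WNT9B neither gene was tested. KREMEN1 and ZNRF3, a DKK receptor and a ubiquitin ligase, lie 14.8 kb apart on chromosome 11 and both were tested.

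Of the 10 Frizzled genes 9 were tested, and 0 were called (2 at an unadjusted p below 0.05, both lower in HFD). FZD5 had the highest level per length, 14.6 ± 1.11 RPKM in RD and 11.98 ± 1.04 RPKM in HFD, followed by FZD3 at 12.7 ± 1.21 and 11.7 ± 0.435 RPKM, and the ranges of these neighbours overlapped. FZD5 (chromosome 1 of mm10, 64730558 to 64737751, minus strand) was at 94.3, 99.8 and 110 CPM in RD and 86.4, 87.6 and 74.6 CPM in HFD. Every HFD library lay below every RD library, yet the log2 change of -0.29 ± 0.09 missed the threshold (adjusted p = 0.0692). It passed by DESeq2 (adjusted p = 0.0380). Its exons overlap those of the gene model Gm38058 on the opposite strand, and whether the counting was strand-specific is unknown.

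FZD7, a receptor used in many stem cell compartments, was at 40.9, 34.3 and 45.1 CPM in RD and 31.5, 27.0 and 36.0 CPM in HFD. The groups overlapped, with a log2 change of -0.35 ± 0.13 (adjusted p = 0.122). The remaining Frizzled genes divided in sign. FZD1 (0.22 ± 0.15), FZD6 (0.09 ± 0.10), FZD8 (0.17 ± 0.16) and FZD9 (0.49 ± 0.45) had estimates above 0. With a library left out, FZD1 ranged from 0.046 to 0.31, FZD6 from 0.030 to 0.16 and FZD9 from 0.11 to 1.14. FZD2 (-0.02 ± 0.16), FZD3 (-0.12 ± 0.08) and FZD4 (-0.05 ± 0.12), the last known for its role in vessels, had estimates below 0. The signs of FZD2, FZD4 and FZD8 turned under some alternatives. FZD10, not tested, had 2 counts in each HFD library and 9, 5 and 9 in RD.

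**Figure D3:**
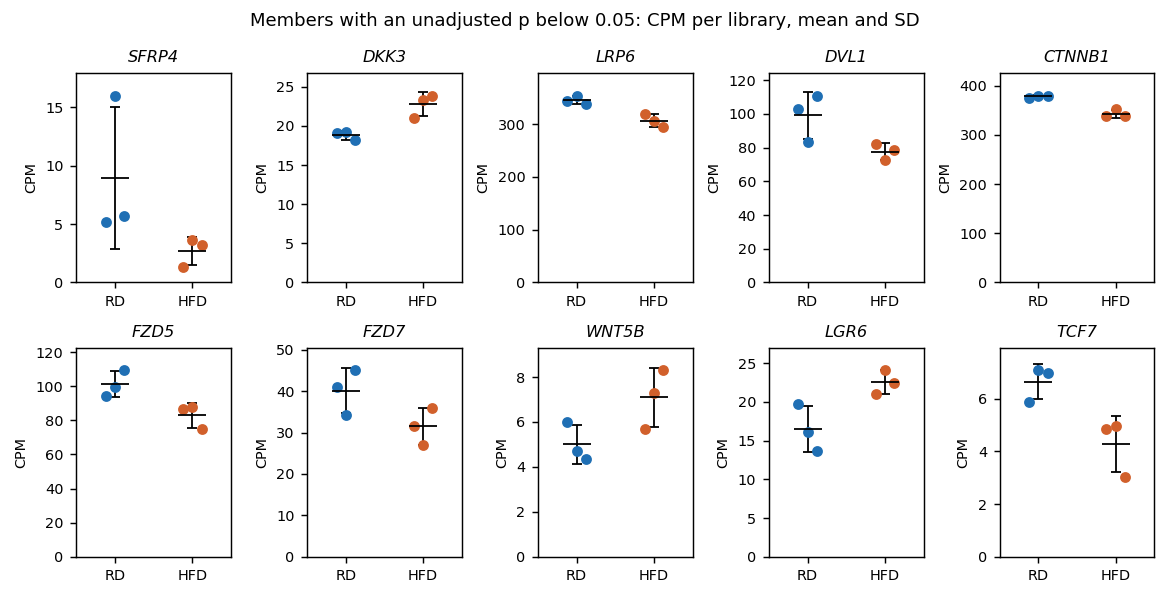
CPM per library of the 10 members with an unadjusted p below 0.05 (points, blue RD and orange HFD; bars are mean and SD, n = 3), each axis from 0. The groups do not overlap for 8 of them (for FZD7 and WNT5B they do), and RD replicate 2 is high for SFRP4 at 16.0 CPM. As these genes were picked by a p-value from the same libraries, the lack of overlap is no separate support. It was found for 20% of tested members and 32.5% of all rows.

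Of the 5 co-receptors and other WNT receptors 0 were called (1 at an unadjusted p below 0.05). LRP6 was at 345, 354 and 339 CPM in RD and 319, 306 and 294 CPM in HFD. The groups did not overlap and the difference was small, a log2 change of -0.17 ± 0.06 with a 95% interval from -0.31 to -0.04 (adjusted p = 0.0900). LRP5, its paralogue, had 70.6 ± 8.43 and 67.6 ± 1.94 CPM with overlapping groups. RYK, an atypical receptor kinase, was at 42.6, 41.5 and 47.2 CPM in RD and 39.4, 39.3 and 37.6 CPM in HFD, again with no overlap and again not called (log2 change -0.18 ± 0.08). The WNT5A receptors ROR1 (0.36 ± 0.16) and ROR2 (0.18 ± 0.14) had estimates above 0 and overlapping groups. RD replicate 3 was the lowest library for both, at 13.1 CPM for ROR1 and 25.7 CPM for ROR2. Without it the log2 change was 0.24 for ROR1 and 0.018 for ROR2, and without HFD replicate 1 that of ROR1 was 0.20.

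Among the antagonists 6 of 12 were tested, and 1 fell. SFRP4 (chromosome 13 of mm10, 19623104 to 19632994, plus strand) encodes a secreted Frizzled-related protein that binds WNT ligands. It was at 5.20, 16.0 and 5.66 CPM in RD replicates 1, 2 and 3 and at 1.32, 3.5997 and 3.18 CPM in HFD replicates 1, 2 and 3. Each HFD library lay below each RD library, and RD replicate 2 was far above the other RD libraries. The RD mean was 8.96 ± 6.11 CPM against an HFD mean of 2.70 ± 1.21 CPM, and SFRP4 fell with a log2 change of -1.72 ± 0.48 and a 95% interval from -2.80 to -0.64. The adjusted p of edgeR's quasi-likelihood test was 0.04999996, just under the threshold, and the call was made in 7 of 16 alternatives. Without RD replicate 2 the log2 change was -1.01 (adjusted p = 0.133), and without HFD replicate 1, 2 or 3 the adjusted p was 0.137, 0.104 and 0.142.

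Fibroblast markers were examined beside SFRP4, a gene of connective tissue. The summed level of the 7 markers was 477 to 520 CPM in RD and 334 to 429 CPM in HFD, with no overlap. Without COL1A2 the sum overlapped, at 205 to 229 CPM in RD and 168 to 237 CPM in HFD. COL1A2 alone of the 6 tested markers was called, lower in HFD, from 284 ± 32.7 to 176 ± 16.3 CPM (log2 change -0.69 ± 0.10, adjusted p = 0.00338). The other collagen genes COL1A1 and COL3A1, the proteoglycan genes DCN and LUM and the receptor gene PDGFRA had overlapping groups, and DPT was near 0. RD replicate 2, high for SFRP4, was the highest RD library for COL1A1 and COL3A1 (42.6 and 42.7 CPM), the lowest for LUM (12.8 CPM) and between the others for COL1A2, DCN and PDGFRA (294, 95.8 and 32.3 CPM). The part of fibroblast content in the level of SFRP4 was not tested.

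**Figure D4:**
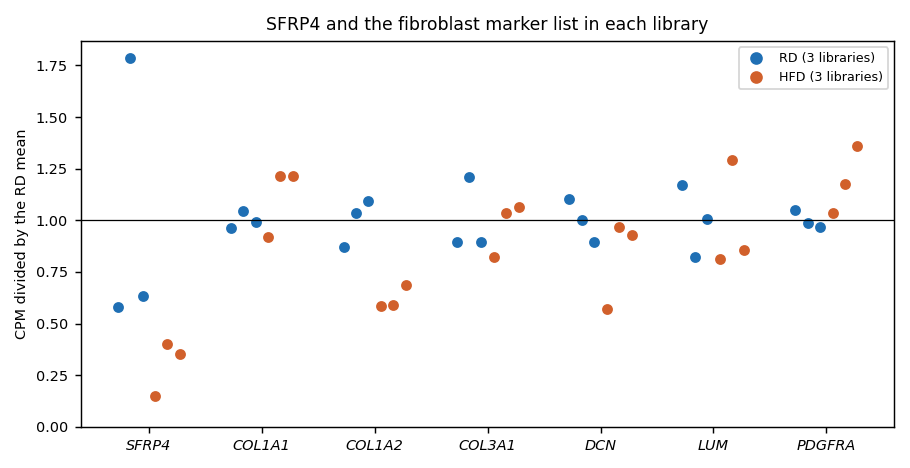
CPM of SFRP4 and of 6 fibroblast markers in each library, divided by the mean of the 3 RD libraries (blue RD, orange HFD; the line is at 1). SFRP4 and COL1A2 are lower in every HFD library than in every RD library, and the other 5 markers overlap.

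The other antagonists did not pass the threshold. DKK3, a divergent member of the Dickkopf family, was at 19.0, 19.3 and 18.1 CPM in RD and 21.02, 23.4 and 23.9 CPM in HFD, without overlap (log2 change 0.27 ± 0.11, adjusted p = 0.130). SFRP5 was the most abundant SFRP gene per length, at 5.83 ± 1.18 and 6.95 ± 0.902 RPKM. SFRP1 and SFRP2 were scarce, with group means from 1.43 to 2.10 CPM. SFRP1 was even in RD (2.08, 2.08 and 2.14 CPM) and uneven in HFD (0.971, 0.883 and 3.51 CPM), the high value being that of HFD replicate 3, the library with the highest oligodendrocyte marker signal. Whether that signal bears on SFRP1 was not tested. KREMEN1, a receptor for DKK proteins, was at 57.8, 66.2 and 90.4 CPM in RD and 57.7, 52.4 and 60.6 CPM in HFD, and again RD replicate 3 was the high library. The classical inhibitors DKK1, DKK2, DKK4 and WIF1, the ligand deacylase NOTUM and DKKL1 did not pass the filter on low counts. With no filter, 63 of the 66 members were tested, all but the 3 with no count, and SFRP4 was the only one called.

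On the R-spondin axis 7 of 9 members were tested and 0 were called (1 at an unadjusted p below 0.05). LGR6, an R-spondin receptor (chromosome 1 of mm10, 134983301 to 135105276, minus strand), was at 19.7, 16.1 and 13.7 CPM in RD and 21.02, 24.1 and 22.4 CPM in HFD. All HFD libraries lay above all RD libraries, with a log2 change of 0.45 ± 0.14 that missed the threshold (adjusted p = 0.0776) and passed without RD replicate 1 (0.59, adjusted p = 0.0283). LGR4 was the most abundant receptor of the family, at 11.8 ± 0.649 and 11.99 ± 0.894 RPKM, with a 95% interval of the log2 change from -0.16 to 0.22. LGR5, a stem cell marker in several epithelia, was scarce and variable, at 8.99, 3.19 and 6.65 CPM in RD and 3.33, 5.50 and 6.89 CPM in HFD. The ligases ZNRF3 (log2 change 0.03 ± 0.11) and RNF43 (0.12 ± 0.14) overlapped between groups. Of the R-spondins, RSPO4 (4.46 ± 1.46 and 5.54 ± 2.82 CPM) and RSPO3 (2.32 ± 0.784 and 1.80 ± 0.476 CPM) were tested, and RSPO1 and RSPO2 were below the filter.

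All 7 cytoplasmic members were tested and 0 were called (2 at an unadjusted p below 0.05, both lower in HFD). DVL1 (chromosome 4 of mm10, 155847402 to 155859303, plus strand) was at 103, 83.4 and 111 CPM in RD and 82.0, 72.4 and 78.4 CPM in HFD. The lowest RD library lay just above the highest HFD library, and the log2 change was -0.35 ± 0.11 (adjusted p = 0.0648). It passed by DESeq2 (adjusted p = 0.0216) and without RD replicate 2 (-0.47, adjusted p = 0.0219). The paralogues DVL2 and DVL3 had log2 changes of 0.04 ± 0.10 and 0.06 ± 0.08. The difference between DVL1 and its paralogues was not tested.

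CTNNB1, at 375, 380 and 380 CPM in RD and 338, 352 and 338 CPM in HFD, had tight groups that did not overlap. Its log2 change of -0.14 ± 0.05 had a 95% interval from -0.26 to -0.02 and was not called (adjusted p = 0.131). The scaffold gene APC was the flattest member, with means of 276 ± 8.42 and 276 ± 15.3 CPM and a 95% interval from -0.14 to 0.14. AXIN1 was at 67.9 ± 4.62 and 70.0 ± 1.13 CPM. AXIN2, both an inhibitor of the pathway and a widely used readout of beta-catenin activity, was at 66.8, 61.7 and 65.0 CPM in RD and 66.7, 69.1 and 75.2 CPM in HFD. The groups overlapped, with a log2 change of 0.12 ± 0.08 and a 95% interval from -0.05 to 0.30.

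The 4 transcription factor genes were tested and 0 were called (1 at an unadjusted p below 0.05). TCF7 (chromosome 11 of mm10, 52252371 to 52283014, minus strand), which encodes TCF1, was at 5.87, 7.10 and 6.99 CPM in RD and 4.86, 4.96 and 3.04 CPM in HFD. The groups did not overlap, and the log2 change of -0.63 ± 0.23 did not pass (adjusted p = 0.107), here or in any of the 16 alternatives. TCF7L2, the most abundant of the 4 per length (3.23 ± 0.380 and 2.96 ± 0.445 RPKM), TCF7L1 (2.30 ± 0.263 and 2.499 ± 0.178 RPKM) and LEF1 (0.346 ± 0.0153 and 0.398 ± 0.0696 RPKM) had overlapping groups. LEF1 is itself a target of the pathway in many tissues, and its 95% interval ran from -0.32 to 0.72.

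A further 77 genes of WNT secretion, kinases and scaffolds, nuclear cofactors, other antagonists, planar polarity and known targets were listed, 76 had a row, and 67 were tested. Of these, 4 rose and 0 fell, a called share of 5.97%. Of all rows 10.5% were called in either direction and 5.87% higher. An unadjusted p below 0.05 was found for 13 genes of the list (19.4%), 11 higher and 2 lower. Over all rows that share was 26.5%, with 14.04% higher and 12.5% lower. The median log2 change was 0.04. Among the nuclear cofactors and the known targets 0 of 14 and 0 of 9 tested genes were called by edgeR (1 and 2 at an unadjusted p below 0.05).

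DACT1, which encodes a protein that binds Dishevelled, was at 7.83, 7.16 and 6.53 CPM in RD and at 11.3, 11.7 and 10.7 CPM in HFD (log2 change 0.65 ± 0.15, adjusted p = 0.0223). CELSR2, a cadherin of planar cell polarity, went from 80.5 ± 5.65 to 103 ± 5.84 CPM (0.36 ± 0.08, adjusted p = 0.0221). CAPRIN2, reported to promote phosphorylation of LRP6, went from 28.2 ± 3.89 to 39.2 ± 0.520 CPM (0.47 ± 0.11, adjusted p = 0.0245). BTRC, the ubiquitin ligase subunit that recognises phosphorylated beta-catenin, was at 97.6, 101 and 97.4 CPM in RD and 120, 118 and 121 CPM in HFD (0.27 ± 0.06, adjusted p = 0.0245). In all 4 genes the groups did not overlap. As the 4 were picked by a p-value from the same libraries, this is no separate support. Groups without overlap were found for 17.9% of the tested genes of the wider list and for 32.5% of all rows. The number of genes of the wider list called higher was 1 without RD replicate 2 (RECK) and 1 without HFD replicate 1 (CELSR2). It was 0 without HFD replicate 2 or 3, where the adjusted p of the 4 genes reached 0.107. Without RD replicate 1 it stayed at 4, but BTRC dropped out (adjusted p = 0.0613) and NR4A2 was called. With each library left out in turn, BTRC was called 1 time, DACT1 and CAPRIN2 2 times each and CELSR2 3 times.

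Of the textbook targets, MYC was at 12.9, 13.6 and 10.4 CPM in RD and 14.6, 18.5 and 17.2 CPM in HFD, without overlap and not called (log2 change 0.45 ± 0.15, adjusted p = 0.0841). CCND1, the cyclin D1 gene, was at 95.8 ± 11.2 and 86.9 ± 6.24 CPM with overlapping groups. The feedback inhibitor NKD1 had 6.10 ± 2.002 and 7.04 ± 0.826 CPM. NR4A2, an orphan nuclear receptor gene on the list of targets, had a larger estimate than any of the 4 called genes. It was at 228, 63.5 and 101 CPM in RD and 296, 182 and 303 CPM in HFD, with overlapping groups and a log2 change of 0.99 ± 0.38 that was not called (adjusted p = 0.128). It was called without RD replicate 1, the high RD library (1.65, adjusted p = 0.00421), and with a replicate block (1.15, adjusted p = 0.0207). SP5 had 6 counts in all libraries together and was not tested. None of AXIN2, LEF1, CCND1 and MYC was thus called by edgeR.

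**Figure D5:**
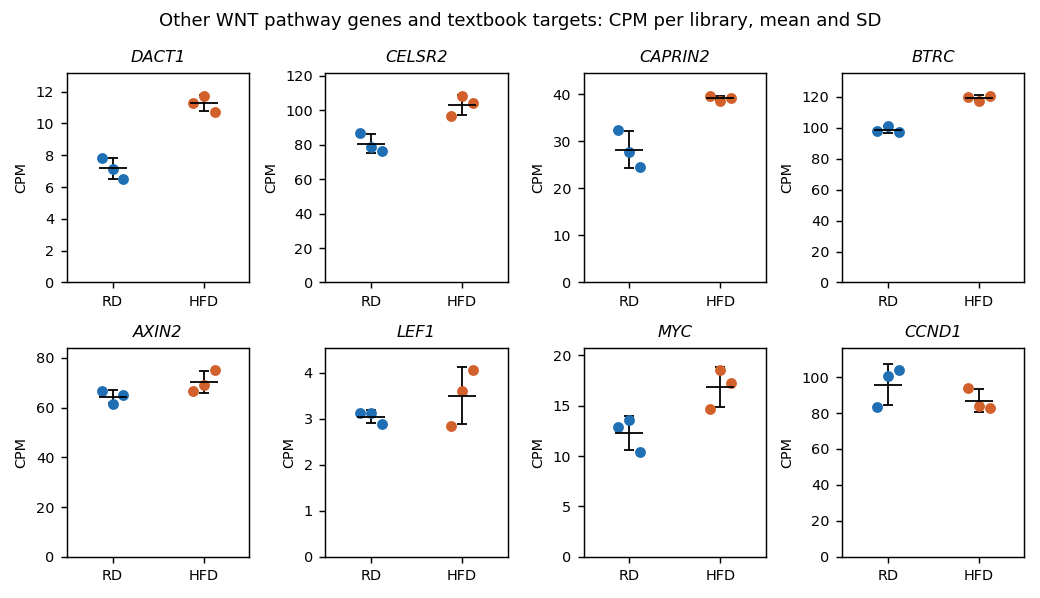
CPM per library of the 4 called genes of the wider pathway (top) and of 4 known targets (bottom), with mean and SD (n = 3) and axes from 0. In the top row each HFD point lies above each RD point, and in the bottom row only MYC has groups that do not overlap. The top genes were picked by a p-value from the same libraries, so their lack of overlap is no separate support.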

How the data were processed

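The data are bulk RNA-seq of pituitary in 6 libraries, from RNA extracted with a column kit and selected with oligo-dT, per the labels' protocols. The authors deposited 1 table of raw counts, whole numbers in rows named by gene symbol, with no normalization. Apart from case, 43 symbols stood on 2 rows, none of them a member. The genome build was mm10 per the submitters' processing notes. Aligner, counting tool, annotation and use of strand: not given in the sources used here. In each library 64.0% to 67.0% of the counts from 1 to 10 were even numbers, so that 1 count may not be 1 fragment, and no counting intervals are given.

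Counts were tested over the whole table by the two-sided quasi-likelihood test of edgeR 4.0.16 (R 4.3.3), with TMM factors, filterByExpr (minimum count 10, minimum total 15), diet as the only term and Benjamini-Hochberg adjustment over 13873 rows. "Called" means an adjusted p below 0.05. Changes are log2(HFD/RD) with SE, the size of the change divided by the square root of F. CPM uses TMM-scaled totals, and RPKM divides it by the union of exons in GENCODE M21, which understates genes with long rare exons. The fit was run on counts simulated from its own model, which does not test how well that model suits these libraries. Replicates were compared and no pair was identical (chi-square per degree of freedom 4.48 to 21.1).

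The members and lists were chosen with earlier results of these data known. Named genes are the called members, the tested members of each role and, of the wider list, the called genes (4 at most in each direction) and the targets CCND1, MYC, AXIN2, LEF1, NKD1 and SP5. RECK, WLS, NR4A2, the fibroblast sum without COL1A2 and the uncalled members beyond the 3 most abundant of a role were chosen after their values were seen. As alternatives, the scaling was replaced 4 times and the filter 2 times, and DESeq2 1.42.0, limma-voom (limma 3.58.1), halved counts, a replicate block and leaving out each library in turn were tried. Of the marker lists, those without a value in the text had these called members among those tested: stem and folliculostellate 2 of 7 (both higher), and 0 of 6 pituicyte, 0 of 10 endothelial, 0 of 6 mural, 0 of 9 myeloid, 0 of 3 hypothalamic neuron and 0 of 2 dividing cell markers (for these 6 lists 0, 3, 1, 0, 0 and 0 at an unadjusted p below 0.05 by edgeR).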

Additional observations from a re-analysis of the deposited data

How the results depend on the processing

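All 16 alternatives named under the methods were run. Over all rows, 814 genes were called higher and 639 lower; with library totals as the only scaling 1121 were higher and 425 lower (72.5% of calls higher, against 56.0%), and with a library left out 243 to 813 were higher and 188 to 710 lower. The number of members called lower was 1, and 0 with library totals only, upper-quartile factors, the strict filter (1 CPM in 3 libraries), limma-voom or halved counts, 3 by DESeq2 (DVL1, FZD5 and SFRP4) and 0 to 1 with a library left out. The number called higher was 0, and 0 to 1 with a library left out. For the wider list it was 4, 5 by DESeq2 (RECK added) and 0 to 4 with a library left out. SFRP4 was called in 7 of 16 alternatives, with log2 changes from -2.002 to -1.01.

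Deviations from the group means of same-numbered libraries correlated at -0.14, 0.02 and -0.10, and not every library correlated best with its own number. With 3 libraries in each group, these values cannot show whether the replicate numbers pair the libraries. With a replicate block 472 genes were higher and 339 lower over all rows, SFRP4 was the 1 member called, and 2 genes of the wider list were higher (CAPRIN2 and NR4A2).

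Signs turned only for genes that were not called. Outside the left-out libraries these were LRP5 (0.0042), FZD2 (0.049), FZD4 (0.013) and WLS (0.026) with library totals only, FZD2 with upper-quartile factors (0.013), WNT5A with limma-voom (-0.0078) and the replicate block (-0.0060), and APC with RLE factors (-0.0052), TMM factors from rows other than hormone genes (-0.0017), no filter (-0.0037), the strict filter (-0.00044), DESeq2 (-0.0052), limma-voom (-0.00021) and the replicate block (-0.0012). With a library left out the ranges of log2 change that crossed 0 were -0.60 to 0.11 for SFRP2, -1.17 to 0.097 for SFRP1, -0.14 to 0.028 for LRP5, -0.039 to 0.12 for DVL2, -0.015 to 0.082 for AXIN1, -0.044 to 0.034 for APC, -0.0074 to 0.26 for FZD8, -0.13 to 0.038 for FZD4, -0.15 to 0.080 for FZD2, -0.54 to 0.13 for WNT10A, -0.13 to 0.21 for WNT5A, -0.15 to 0.61 for RSPO4, -0.036 to 0.060 for LGR4, -0.039 to 0.098 for ZNRF3, -0.58 to 0.076 for LGR5, -0.027 to 0.44 for NKD1 and -0.13 to 0.0021 for WLS. The cause was not tested in any of these cases. Of the 44 uncalled members, 34 had a log2 change that moved by over 1.5 times, up or down, or turned when 1 library was left out. The filter kept out 21 members, which had 1.22 CPM or less, and with no filter 63 members were tested and SFRP4 was the 1 called.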

Other observations

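HFD replicate 3, which had the highest oligodendrocyte marker signal (198 CPM in sum), was also the highest library for SFRP1 (3.51 CPM), FZD1 (34.9 CPM), FZD8 (18.2 CPM), FZD6 (41.5 CPM), AXIN2 (75.2 CPM), LEF1 (4.06 CPM), WNT5B (8.31 CPM) and, among the untested members, NOTUM (1.22 CPM, against 0.272 to 0.673 CPM elsewhere) and DKK2 (1.01 CPM, against 0.278 to 0.636 CPM). Of the tested members, SFRP5, DKK3, WNT9A, WNT4, FZD9, WNT16 and TCF7L1 were also highest there. The same library was the lowest for LRP6 (294 CPM), RYK (37.6 CPM), APC (263 CPM), FZD3 (146 CPM) and FZD5 (74.6 CPM). It was also the lowest for FZD4 (18.7 CPM), TCF7 (3.04 CPM), TCF7L2 (23.5 CPM) and RSPO3 (1.28 CPM). The part of the marker signal in these values was not tested.

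RD replicate 3, which stood apart over all genes, was the highest library for WNT10A (30.3 CPM), KREMEN1 (90.4 CPM), FZD3 (181 CPM), FZD5 (110 CPM), FZD7 (45.1 CPM), DVL1 (111 CPM) and RYK (47.2 CPM), and the lowest for WNT9A (13.5 CPM), ROR1 (13.1 CPM) and LGR6 (13.7 CPM). Of the tested members, CTNNB1, AXIN1 and DVL3 were also highest in RD replicate 3, and ROR2, DKK3, LGR4 and WNT5B were also lowest there. These libraries were noticed after the data were examined.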
